A study of Mus musculus with 4 samples.

Results

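This account covers 9 mouse genes that encode small proteins built almost wholly of LIM domains: the four-and-a-half LIM genes Fhl1, Fhl2 and Fhl3, the LIM-only genes Lmo1, Lmo2, Lmo3 and Lmo4, and the cysteine and glycine-rich genes Csrp1 and Csrp2. They were found on the array by gene name among spots that are not controls, which gave 15 of 41174 probes. All 9 genes had at least 1 probe bright enough to be used, and 14 of the 15 probes were. The set was chosen by measured values, the strong difference of Fhl1 and Lmo1 between the 2 mutant lines on these arrays, so the difference between the lines is described and not tested. The RNA came from neurospheres, floating cultures grown from neural stem cells in EGF-supplemented medium without serum, of mice of a 129/Sv and C57BL/6 cross. The groups were the Dll1-3 mutant line, the Dll1-5 mutant line and wild type, and Dll1 encodes a ligand of the Notch receptors. On each of 4 arrays, mutant RNA and wild-type RNA were hybridised together in different dyes, and the 2 arrays of a line had opposite dyes. The design text was read as 1 pool of 3 preparations per line, so a line counts as 1 replicate and its 2 arrays show technical spread.

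A LIM domain is a double zinc finger that binds other proteins and not DNA. LIM-only proteins work in the nucleus as bridges: they hold LIM-domain-binding proteins such as Ldb1 together with transcription factors of the basic helix-loop-helix and GATA families. The FHL and cysteine and glycine-rich proteins shuttle between actin filaments, adhesion sites and the nucleus, where several of them act as cofactors, among them cofactors of serum response factor. A shorter splice form of mouse Fhl1, named KyoT2, binds RBP-J, the DNA-binding factor through which Notch receptors act.

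Since Dll1 is a Notch ligand and Notch receptors act through RBP-J, the start regions of the 2 genes on which the results turn are shown here. Whether either gene is a target of RBP-J was not tested. The sequences are from RefSeq (build GRCm38.p6), run 5′ to 3′ on the strand of the gene from 250 bases before to 50 bases after an annotated start, and show in capitals each match to TGGGAA, the core of the RBP-J binding motif, or to its other strand TTCCCA. The second of 2 annotated Fhl1 starts lies on chromosome X, plus strand, and the first of 2 Lmo1 starts on chromosome 7, minus strand.
Fhl1, chrX:56786277-56786576: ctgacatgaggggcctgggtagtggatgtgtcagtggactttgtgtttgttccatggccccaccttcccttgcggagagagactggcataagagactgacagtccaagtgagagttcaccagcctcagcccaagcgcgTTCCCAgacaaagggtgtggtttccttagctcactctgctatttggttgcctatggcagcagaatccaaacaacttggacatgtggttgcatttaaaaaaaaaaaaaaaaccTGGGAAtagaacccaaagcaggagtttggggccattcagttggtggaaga
Lmo1, chr7:109175158-109175457: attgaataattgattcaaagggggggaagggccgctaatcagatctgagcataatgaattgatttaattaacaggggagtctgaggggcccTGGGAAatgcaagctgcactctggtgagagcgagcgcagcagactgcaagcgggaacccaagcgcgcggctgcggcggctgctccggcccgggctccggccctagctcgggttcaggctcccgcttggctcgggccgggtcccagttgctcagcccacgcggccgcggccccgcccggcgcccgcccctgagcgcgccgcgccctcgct
The Fhl1 window held 2 matches and the Lmo1 window 1 match. The other Fhl1 start had no match, and the other Lmo1 window overlaps the one shown and holds the same match. Windows were available for 7 of the 9 genes, 13 in all (none for Lmo2 and Csrp2), and 6 of the 13 held a match, in Fhl1, Fhl2, Lmo1, Lmo3 and Csrp1. Of 32851 such windows over the genome, 25.6% held the same letters. The 13 windows come from 7 genes and some overlap, as for Lmo1 and Lmo4, and no share per gene was worked out. An excess in the family therefore cannot be read from these counts. A match is a run of letters and not evidence of binding.

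The labels were checked on Dll1 itself, whose log2 ratio of mutant over wild type was lower than 0 on every array, with -3.31 and -3.22 for Dll1-3 and with -1.65 and -1.64 for Dll1-5. The cells were looked at on 7 neural stem cell markers (Nes, Sox2, Vim, Fabp7, Msi1, Prom1 and Slc1a3). All 7 were well above background in both mutant and wild-type RNA on all 4 arrays. That does not identify the cells, because most probes on these arrays passed the same mark. Prom1 was dim, with a log2 signal of 6.46 in wild-type RNA. The share of probes well above background was 80.9% to 81.3% for mutant RNA, against 80.0% to 82.1% for wild-type RNA, and precision is limited by how few arrays there were. The labels used here do not state which part of Dll1 is altered or whether both lines carry 1 allele. Fewer cells of a kind and less RNA per cell cannot be told apart in these cultures.

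Fhl1, best known as a scaffold protein of muscle and also present in neural progenitor cultures here, was the gene of the family furthest from wild type. The Dll1-3 arrays gave log2 ratios of -6.05 and -6.15, and the Dll1-5 arrays gave -2.40 and -2.72. All 4 values were far below 0, and the arrays of the 2 lines did not overlap. The mean was -6.10 ± 0.053 for Dll1-3, a 68.6-fold lower signal than wild type, and -2.56 ± 0.16 for Dll1-5, a 5.90-fold lower signal (± is the distance of the 2 dye-swapped arrays from their mean). In Dll1-3 this was rank 2 from the lowest of 23107 genes, and in Dll1-5 it was at rank 81 from the lowest. The lines differed by 11.6-fold. The only Fhl1 probe matched the transcript NM_010211 and lies on chromosome X from 51547960 to 51548019, in coordinates of the array file that names no build. Which splice forms of Fhl1 it measures was not determined.

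The 2 dyes can be read separately to see on which side the lines part. After normalization between arrays, the log2 signal of Fhl1 was 7.82 and 7.82 in Dll1-3 RNA and 11.57 and 11.33 in Dll1-5 RNA, against 13.87, 13.98, 13.97 and 14.04 in wild-type RNA. The wild-type signals on the arrays of both lines lay close together, with a difference of line means (Dll1-3 minus Dll1-5) of -0.08 on the log2 scale. For the mutant signals this difference was -3.62, so nearly all of the difference in ratio was on the mutant side. Fhl1 stayed well above background in mutant RNA on all 4 arrays.

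**Figure D1:**
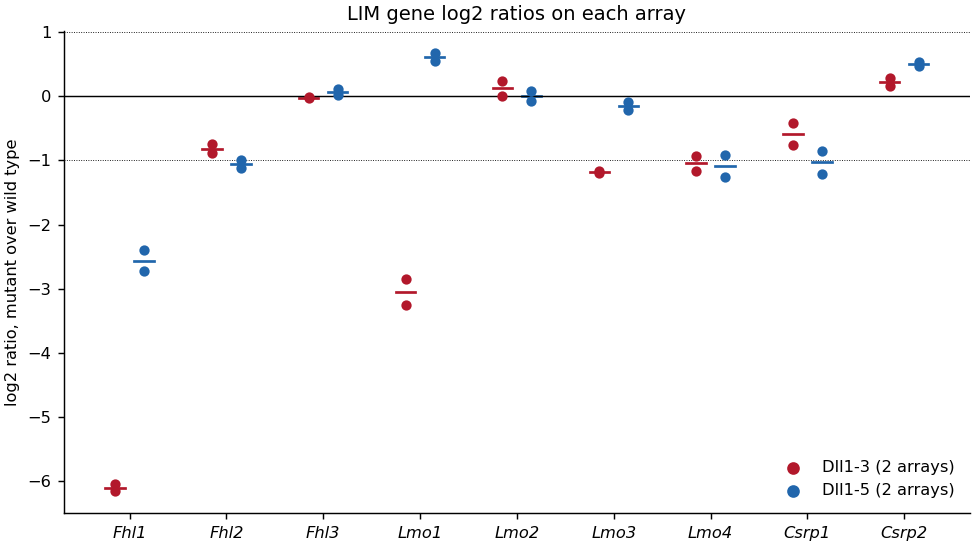
Log2 ratio of mutant over wild type (y axis) of the 9 genes (x axis), with 1 point per array, red for Dll1-3 and blue for Dll1-5, a bar at the mean of each line's 2 arrays and dotted lines at a 2-fold change. Fhl1 lies far below 0 in both lines and further in Dll1-3, Lmo1 lies at -3.06 in Dll1-3 and at 0.61 in Dll1-5, and Fhl3 and Lmo2 lie near 0.

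Lmo1, a nuclear bridge protein of neurons and a known oncogene of human T-cell leukaemia, was lower than wild type in one line and higher in the other. Log2 ratios of -3.25 and -2.86 were measured for Dll1-3, and of 0.67 and 0.55 for Dll1-5. Both Dll1-3 arrays lay below 0 and both Dll1-5 arrays above it. The mean of -3.06 ± 0.20 in Dll1-3 is an 8.31-fold lower signal than wild type, and the mean of 0.61 ± 0.059 in Dll1-5 a 1.53-fold higher one, so the lines stood 12.7-fold apart. Among 23107 genes, the size of this difference ranked 13 and that of Fhl1 ranked 14. The Lmo1 signal was 7.35 and 7.91 (log2) in Dll1-3 RNA and 11.41 and 11.42 in Dll1-5 RNA, against 10.61, 10.77, 10.74 and 10.86 in wild-type RNA. As for Fhl1, the wild-type values of both lines were alike, with line means differing by -0.11, whereas those of the mutants differed by -3.78. The Lmo1 probe, the only one, matched NM_057173 and lies on chromosome 7 from 102991522 to 102991581.

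**Figure D2:**
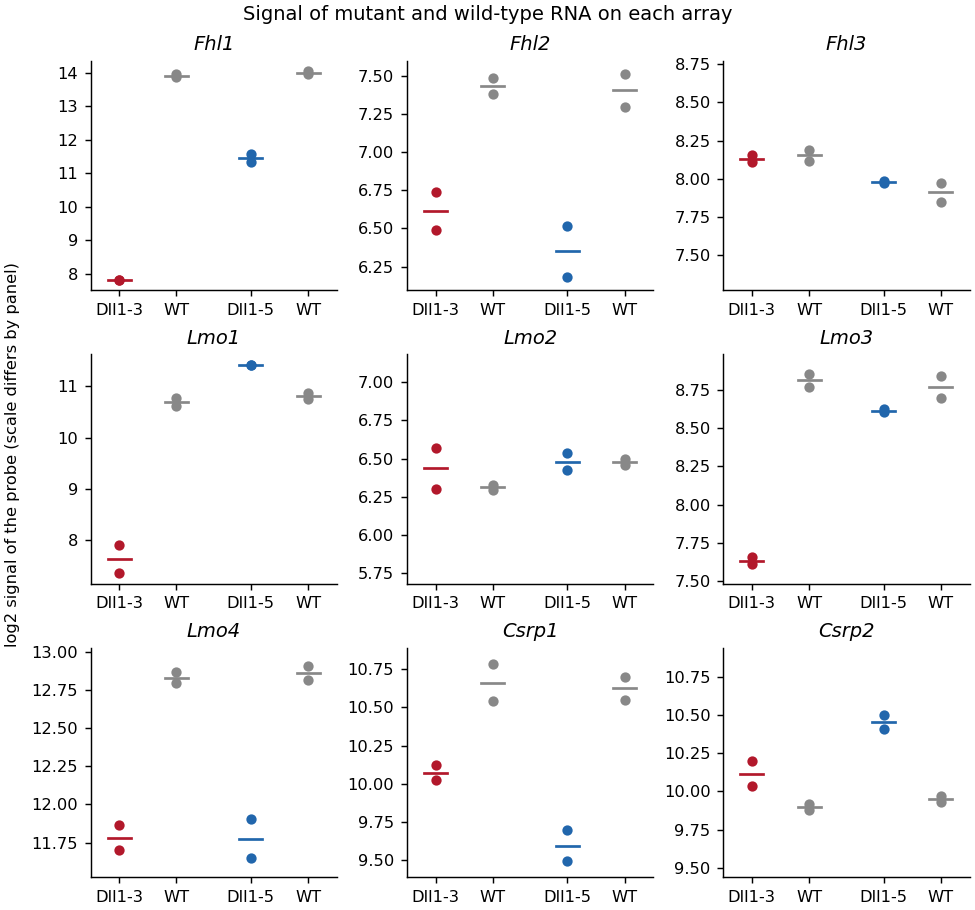
Log2 signal (y axis, own scale in each panel) of the brightest probe of each gene in mutant RNA (red for Dll1-3, blue for Dll1-5) and in the wild-type RNA of the same arrays (grey), with 1 point per array and a bar at the mean of 2. The grey points of the 2 lines lie at like heights in each panel, with line means at most 0.24 apart, and the Fhl1 and Lmo1 panels show the mutant signals apart.

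Lmo3, the closest relative of Lmo1 and likewise a gene of neurons, was the third member whose lines stood at least 2-fold apart without overlap. Its brightest probe was at -1.16 and -1.20 (log2 ratio) for Dll1-3, and at -0.09 and -0.22 for Dll1-5. The line means of -1.18 and -0.16 correspond to a 2.27-fold and a 1.11-fold lower signal than wild type. A second, dimmer Lmo3 probe was at -1.18 and -0.97 in Dll1-3, and at -0.80 and -0.62 in Dll1-5, so both probes were lower in both lines and the second showed a smaller gap between the lines. The gap of Lmo3 fell under 2-fold with no background correction (-1.11 in Dll1-3 and -0.15 in Dll1-5) and with the mean of both probes (-1.13 in Dll1-3 and -0.43 in Dll1-5). It also fell under 2-fold without Dll1-5 replicate 1, where Dll1-5 was at -0.22 and Dll1-3 stayed at -1.18. Over both lines the mean of the brightest probe was -0.67 (SD 0.72, n = 2 lines; limma adjusted p = 0.337), which is within the spread between the lines. Counting Fhl1, Lmo1 and Lmo3, 3 of 9 members were at least 2-fold lower in Dll1-3 than in Dll1-5 with no overlap of arrays, where 2.74% of all genes were, and 0 of 9 were higher by that rule, where 1.65% of all genes were. The members were chosen for this contrast.

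Lmo4, the LIM-only protein most widely active in the developing cortex, was lower than wild type by all 3 of its probes. Its brightest probe was at -0.93 and -1.17 for Dll1-3, and at -0.91 and -1.26 for Dll1-5. The line means were -1.05 and -1.08, or 2.07-fold and 2.12-fold lower than wild type, but with median centring in place of loess they were -0.59 in Dll1-3 and -0.88 in Dll1-5. The mean was -1.07 (SD 0.025, n = 2 lines), and the ratio lay below 0 on 4 of 4 arrays. The limma adjusted p was 0.0755, in a fit where no gene of 23106 passed 0.05. The other Lmo4 probes were lower on every array as well, with line means of -0.47 and -0.58 for one of them and of -1.02 and -1.46 for the other. Of those, the probe at -1.02 and -1.46 matched the clone AK033097 and not the Lmo4 reference transcript. The brightest probe lies on chromosome 3 from 143160279 to 143160338.

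Lmo2, which bridges Tal1 and GATA factors in blood and endothelial precursors, was at 0.01 and 0.24 in Dll1-3, and at 0.08 and -0.08 in Dll1-5. The values straddled 0, and the mean was 0.06 ± 0.089 (SD, n = 2 lines), with an adjusted p = 0.717 in limma. It was a dim probe, with a log2 signal of 6.30 to 6.57 in mutant RNA and 6.29 to 6.50 in wild-type RNA, yet above background on every array. The background offset compresses the ratios of dim probes, and with the scanner software's own ratios Lmo2 had a value of 0.44 for Dll1-3 and of 0.11 for Dll1-5.

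Fhl2, a cofactor of several transcription factors and itself a target of serum response factor, was lower than wild type by its brightest probe. That probe was at -0.89 and -0.75 in Dll1-3, and at -1.11 and -0.99 in Dll1-5, so all 4 arrays lay below 0 and the lines did not overlap but were close. The mean was -0.94 ± 0.16 (SD, n = 2 lines), with an adjusted p = 0.0788 in limma. Its size and the gap between lines depended on the processing: with the scanner software's own ratios Fhl2 was at -1.72 in Dll1-3 and -2.92 in Dll1-5, over 2-fold apart, and the mean of all passing probes was -0.41 in Dll1-3 and -0.51 in Dll1-5. The probe was well above background in Dll1-5 RNA on 1 of 2 arrays. A second probe, matched to the clone AK081770, had a mean of -0.0029 for Dll1-3 and of 0.028 for Dll1-5, and the third was too dim to pass. The brightest probe lies on chromosome 1 from 43417867 to 43417926.

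Fhl3, the muscle relative that binds actin, was at -0.01 and -0.04 in Dll1-3, and at 0.12 and 0.01 in Dll1-5. Its mean was 0.02 ± 0.063 (SD, n = 2 lines), with an adjusted p = 0.907 in limma, and a second probe was at -0.10 and -0.13. All these line means lay within 0.13 of 0 on the log2 scale.

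**Figure D3:**
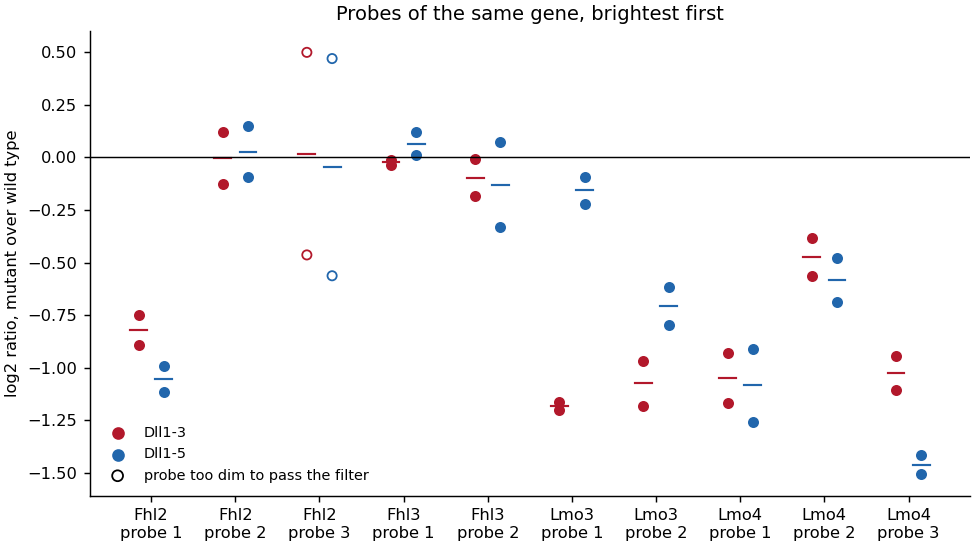
Log2 ratio of mutant over wild type (y axis) of every probe of the 4 genes with more than 1 probe (x axis, brightest probe first), with 1 point per array, red for Dll1-3 and blue for Dll1-5, and a bar at each line's mean. The probes of Lmo3 and Lmo4 all lie below 0, and those of Fhl2 do not agree, with means from -1.05 to 0.03.

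Csrp1 and Csrp2 encode actin-bundle proteins that bind zyxin and alpha-actinin, and they stood on opposite sides of 0. Csrp1 was at -0.76 and -0.42 in Dll1-3, and at -1.21 and -0.86 in Dll1-5, with all arrays below 0. Its mean was -0.81 ± 0.31 (SD, n = 2 lines), with an adjusted p = 0.115 in limma. Csrp2 was at 0.28 and 0.16 in Dll1-3, and at 0.53 and 0.47 in Dll1-5, with all arrays above 0. Its mean was 0.36 ± 0.20 (SD, n = 2 lines), with an adjusted p = 0.206 in limma. Neither reached the 2-fold mark on all arrays of a line. The Csrp1 probe lies at 135598474 to 135598533 of chromosome 1, and the Csrp2 probe at 110562159 to 110562218 of chromosome 10.

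Across the family, 0 of the 7 members other than Fhl1 and Lmo1 passed an adjusted p of 0.05 in limma, where 0% of 23106 genes tested did. No p is given for Fhl1 and Lmo1, because the spread between the lines for which they were picked is the error of this test. Without adjustment, 3 of 7 had a p under 0.05, where 27.5% of all genes had. These were Fhl2, Lmo4 and Csrp1, all of them lower, where 15.5% of all genes were lower, and 0 of 7 were higher, where 12% were. In Dll1-3, 3 of 9 members were 2-fold lower on both arrays (Fhl1, Lmo1 and Lmo3), where 6.08% of all genes were, and 0 were 2-fold higher, where 4.44% were. In Dll1-5 it was 1 of 9 (Fhl1), where 3.67% were, and 0 were higher, where 3% were. Only Fhl1 was 2-fold lower on all 4 arrays, where 2.73% of genes were, and no member was 2-fold higher on all 4, where 1.68% were. Fhl1 and Lmo1, whose values led to the choice of the set, are counted among the 9. The 2-fold counts therefore describe the set and do not test it. The median log2 ratio of the 9, with Fhl1 and Lmo1 included, was -0.82 in Dll1-3 and -0.16 in Dll1-5. The medians over all genes were 0.0024 and 0.0039. Of the 9, 6 had the same sign on all 4 arrays, where 49.7% of genes had. Whether both lines were set against the same wild-type RNA is not stated, so the likeness between lines is not read further.

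**Figure D4:**
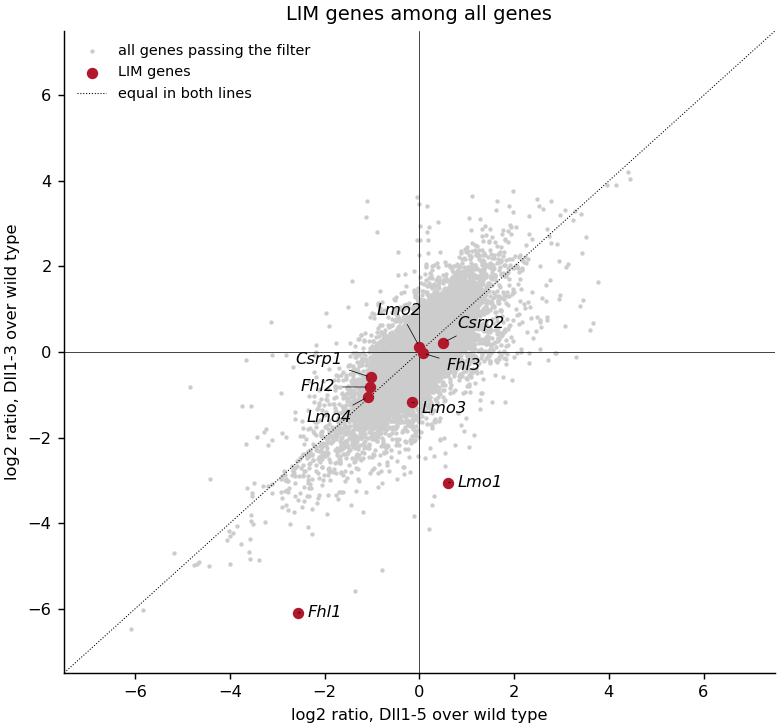
Log2 ratio of Dll1-3 over wild type (y axis) against that of Dll1-5 over wild type (x axis), with 1 grey point for each gene passing the filter and the 9 LIM genes in red, and a dotted line where both are equal. Fhl1 and Lmo1 lie far below the line, Lmo3 lies 1.02 below it, and the other LIM genes lie within 0.44 of it.

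The genes closest to Fhl1 over the 4 arrays, by the largest difference in log2 ratio on any array, were Ttyh1, Prss23, Cpe and Apcdd1, of which Ttyh1 was at 1.27, Prss23 at 1.27 and Cpe at 1.31. None of them was within 1 log2 unit of Fhl1 on every array. Of these 4, Prss23, a serine protease gene, had the widest gap between lines, at -5.83 and -5.33 in Dll1-3 and at -1.26 and -1.44 in Dll1-5. The genes closest to Lmo1 were Bag3, Tmem229a, Ddt and Igfbp7, at 0.41, 0.45, 0.55 and 0.67. Bag3, a co-chaperone that also acts in muscle, was at -3.56 and -3.19 in Dll1-3, and at 0.26 and 0.35 in Dll1-5. Ddt was at -3.76 and -3.40 in Dll1-3, and at 0.27 in both Dll1-5 arrays. Tmem229a was well above background on only 2 of the 4 arrays in mutant RNA.

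Lists of related genes were read beside the family, and 0 of their members passed an adjusted p of 0.05 in limma. Over all genes, 12% were higher and 15.5% lower by an unadjusted p under 0.05, and 1.68% were 2-fold higher and 2.73% lower on all 4 arrays. Of 39 other LIM proteins of the cytoskeleton and of adhesion sites, all measured, 3 were higher and 12 lower by an unadjusted p under 0.05, and 5 were 2-fold lower on all 4 arrays while 0 were higher. Their median was -0.06. Lims2, an adaptor of integrin-linked kinase, was at -2.78 (SD 0.12, n = 2 lines), the lowest of the list, and Nebl, which encodes an actin-binding protein, at -1.82 (SD 0.36). Mical1, an enzyme that oxidises actin, was at 3.43 and 3.38 in Dll1-3, and at 0.28 and 0.02 in Dll1-5, and Crip1, a small LIM protein gene, was between 0.39 and 0.60 on the 4 arrays. The probes of Nebl ranged from -2.56 to -0.79. The count of 5 rests on the brightest probe of each gene. Of the 5, Pdlim5, Prickle2 and Micall1, named after their values were seen, also had a probe nearer 0. Its mean was 0.10 for Pdlim5, -0.04 for Prickle2 and -0.25 for Micall1.

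Of 18 partners of LIM-only complexes, 16 were measured, with 3 higher and 7 lower by an unadjusted p under 0.05 (12% and 15.5% of all genes) and a median of -0.18. The 3 E-proteins of the list, partners of tissue-specific helix-loop-helix factors, lay on both sides of 0. Tcf12 was at -1.52 and -1.91 in Dll1-3, and at -1.20 and -1.56 in Dll1-5. Tcf4 had a mean of -1.12, so these were the 2 lowest of the list, whereas Tcf3 had a mean of 0.48. Some probes of the 2 low genes were nearer 0, up to 0.06 for Tcf12 and -0.31 for Tcf4. The highest were Gata1, which is also on the blood marker list, at 0.64, and Tcf3. Ldb1, the common scaffold of these complexes, had a mean of -0.52 (SD 0.10, n = 2 lines; limma adjusted p = 0.101) and was picked out after its values were seen. The other Ldb1 probe was at -0.16.

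Of 12 LIM homeobox factors, which specify neuron types and share the LIM domain and the Ldb1 partner with the LIM-only proteins, 9 were measured, 1 was higher and 2 lower by an unadjusted p under 0.05 (12% and 15.5% of all genes), and the median was -0.0014. Lhx2, a regulator of forebrain progenitors, had a mean of 0.71 and was between 0.67 and 0.75 on each array. Lhx3 stood at 0.05, Lhx6 at -0.41 and Lhx1 at -0.38, but the other Lhx6 probe was at 0.04. Isl2, chosen after its values were seen, was at 1.14 and 1.11 in Dll1-3, and at -0.96 and -1.29 in Dll1-5, so it had the reverse order of Lmo1.

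Of 12 RBP-J partners, 11 were measured, 1 was higher and 3 lower by an unadjusted p under 0.05 (12% and 15.5% of all genes), and 0 reached 2-fold on all 4 arrays. Maml2, a coactivator, was at -0.68, while L3mbtl3 and Bmi1 were at 0.32 and 0.29. Their other probes were nearer 0, at -0.08 for Maml2, 0.21 for L3mbtl3 and 0.06 for Bmi1. Rbpj, which the short form of Fhl1 binds and which was picked out after its values were seen, lay between -0.07 and 0.04 on the 4 arrays.

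Of 20 targets and cofactors of serum response factor, all measured, 3 were higher and 7 lower by an unadjusted p under 0.05 (12% and 15.5% of all genes), with a median of -0.03. Cnn2, an actin-binding calponin, was at -2.07 and -1.85 in Dll1-3, and at -2.51 and -2.41 in Dll1-5, and Tagln2, a related gene, at a mean of -1.17. Itga5, the fibronectin receptor subunit, was at 1.23 and Myl9, a myosin light chain gene, at 0.85. Srf itself, likewise picked out after its values were seen, had a mean of -0.43 (SD 0.049, n = 2 lines; limma adjusted p = 0.109).

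**Figure D5:**
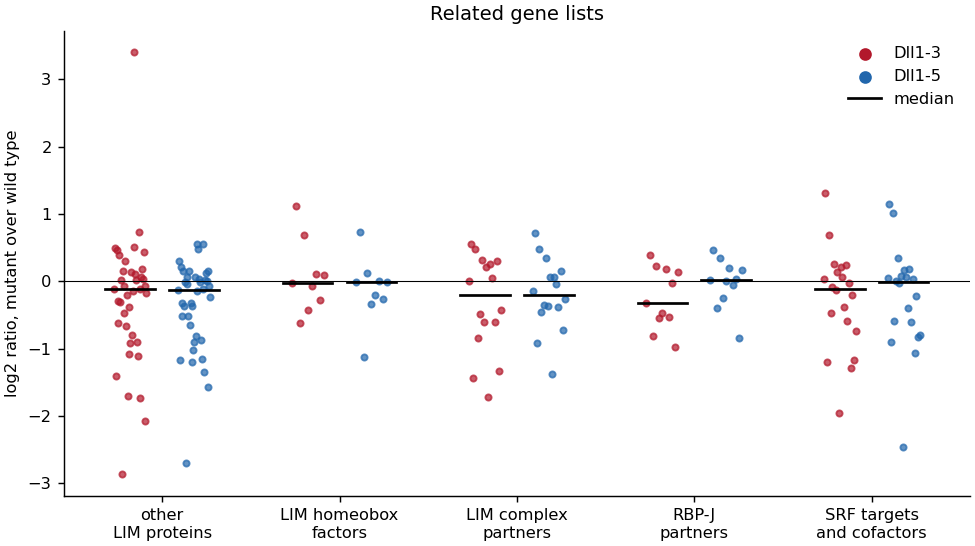
Log2 ratio of mutant over wild type (y axis) of the measured members of 5 related gene lists (x axis), with 1 point per gene, red for Dll1-3 and blue for Dll1-5, and a black bar at the median. Medians lie between -0.32 and 0.02, and points of both signs occur in every list.

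Markers of other cell kinds were read beside the family, where 2.73% of all genes were 2-fold lower on all 4 arrays and 1.68% were 2-fold higher. Their summed log2 signals for astrocytes were 12.76 to 12.98 in Dll1-3 RNA and 13.47 to 13.72 in Dll1-5 RNA, against 15.87 to 16.32 in wild-type RNA, and 2 of 7 markers were 2-fold lower on all 4 arrays. For neurons the sums were 11.67 to 11.88 in Dll1-3 and 12.55 to 12.64 in Dll1-5, against 13.88 to 13.94 in wild type, with 3 of 10 lower by that rule. For the oligodendrocyte lineage they were 14.07 to 14.16 in Dll1-3 and 14.96 to 15.09 in Dll1-5, against 15.15 to 15.24 in wild type, with 3 of 8 lower and 1 higher. All 3 sums were lower in Dll1-3 than in Dll1-5, but a sum of signals follows its brightest genes, and single markers did not all share that order. Of the neuron markers, Map2, the brightest, had mean log2 ratios of -2.58 in Dll1-3 and -1.39 in Dll1-5, whereas Tubb3 had -1.02 for Dll1-3 and -1.01 for Dll1-5, and Elavl3 had -1.63 for Dll1-3 and -1.65 for Dll1-5. Of the astrocyte markers, Apoe, the brightest in wild type, was at -3.95 in Dll1-3 and -3.55 in Dll1-5, while Gja1 was at -1.03 in Dll1-3 and -1.40 in Dll1-5. Of the oligodendrocyte lineage markers, Olig1, the brightest, was at -1.16 in Dll1-3 and 0.04 in Dll1-5. These 6 markers were picked out after their values were seen. The part of cell makeup in the results for Fhl1, Lmo1 and Lmo3 was not tested. The sums of the stem cell markers were 15.91 to 16.20 in Dll1-3 and 16.27 to 16.33 in Dll1-5, against 16.59 to 16.81 in wild type, with 1 of 7 lower.

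For cells in which LIM proteins of this family are best known, 0 markers were 2-fold lower or higher on all 4 arrays. Striated muscle markers, 7 of 7 measured, summed to 11.25 to 11.44 in Dll1-3 and 11.32 to 11.43 in Dll1-5, against 11.70 to 11.95 in wild type. Smooth muscle and mural cell markers, 7 of 8 measured, summed to 12.97 to 13.18 in Dll1-3 and 13.09 to 13.35 in Dll1-5, against 13.45 to 13.62 in wild type. Endothelial and blood markers, 9 of 11 measured, summed to 10.43 to 10.52 in Dll1-3 and 10.57 to 10.64 in Dll1-5, against 10.51 to 10.73 in wild type. Fibroblast markers, 6 of 6 measured, summed to 9.47 to 9.52 in Dll1-3 and 9.48 to 9.51 in Dll1-5, against 9.41 to 9.48 in wild type. No measured marker of these lists was below background in mutant RNA on all 4 arrays, but a marker had to pass the brightness filter to be measured. Several were dim, among them Cdh5, Ptprc and Pdgfrb, each well above background in mutant RNA on only 2 of 4 arrays. The sums therefore do not show that such cells were present.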

How the data were processed

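The authors deposited 1 scan file per array with the intensity of each spot in both dyes, made with Agilent Feature Extraction 8.1.1.1 (per the submitters' processing notes). Per the file headers, the scanner software also wrote a log10 ratio (Cy5 over Cy3) for each spot and 0 or 1 flags for outliers and for signal over background. The deposited value table holds log10 ratios too, with wild type over mutant by their match to the scanner ratios (r from -0.962 to -0.954), column medians of -0.03 to 0.01 and a centring that no source here states. Both were used as alternatives.

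Intensities were corrected with normexp (offset 50, which compresses dim ratios) and loess (span 0.3) in limma 3.58.1 and R 4.3.3, and turned to log2 mutant over wild type. Outlier spots (27 to 115 per array) were left out. A probe was kept if either RNA was flagged above background on both of a line's arrays, and 1 probe per gene, the brightest, gave 23107 genes. Symbols came from RefSeq (GRCm38.p6) where accession, symbol or synonym matched. Each line's arrays were averaged, and both line means were tested against 0 with lmFit and eBayes (1 residual degree of freedom) and Benjamini-Hochberg adjustment over 23106 genes. Nothing in the labels says that a line's arrays came from separate cultures, so p-values measure only the spread between these samples. The ratios leave out the spread of wild type. Signals per dye are after Aquantile, and marker sums are log2 of added signals.

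The 9 genes and the lists were chosen with earlier results of these data known. From each list the 2 highest and 2 lowest means are named, and for Fhl1 and Lmo1 the 4 nearest genes, clone names passed over; 1 gene under this rule is not reported here.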

Additional observations from a re-analysis of the deposited data

Results flagged for a closer look

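For 2 members, both arrays of Dll1-3 and both arrays of Dll1-5 lay on opposite sides of wild type, and the difference was not tested. Lmo1, which was picked for this difference, was at -3.06 in Dll1-3 and 0.61 in Dll1-5. Fhl3 was at -0.024 in Dll1-3 and 0.065 in Dll1-5. For Fhl3 the sign did not hold under every setting: Dll1-3 was at 0.013 with median centring, and Dll1-5 at -0.032 with the mean of all passing probes.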

How the results depend on the processing

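The log2 ratio of Fhl1 ran from -6.48 to -5.80 in Dll1-3 and from -2.72 to -2.32 in Dll1-5 over the alternatives, and that of Lmo1 from -3.49 to -2.86 in Dll1-3 and from 0.55 to 0.73 in Dll1-5.

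Of the 7 other members, the count past an adjusted p of 0.05 (0) was 1 with an intensity trend and 3 at an unadjusted p. It ran from 0 to 2 when each array was left out in turn: Lmo4 passed without Dll1-3 replicate 1 (limma adjusted p = 0.0379), and Fhl2 and Lmo4 without Dll1-5 replicate 2. If the 4 arrays are treated as independent, the count was 4 with no block, 4 with a random block for line, and 3 with the replicate number, which is the dye orientation, as a block. Over all genes, limma called 0 as reported, 922 with an offset of 10, 336 with the scanner software's ratios, 1205 with an intensity trend, 1678 without Dll1-3 replicate 1, 1645 without Dll1-5 replicate 2, and 7728, 6613 and 6683 with 4 independent arrays and no block, the line block and the replicate block. Same-numbered arrays deviated together (r = 0.702 across genes), but the labels give no pairing beyond the dye. Adjusted p ran from 0.000849 to 0.115 for Fhl2, from 0.000709 to 0.11 for Lmo4, from 0.00694 to 0.218 for Csrp1 and from 0.0242 to 0.305 for Csrp2.

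The shares of all genes past the size rules were worked out for the reported setting only. The member counts that follow have no such share beside them, so their rises and falls say nothing particular to the members. The member 2-fold lower on all 4 arrays (1) became 2 with an offset of 10, with the scanner software's ratios and with the deposited table, and 3 at 1.5-fold. In Dll1-3 the 3 lower members became 2 with median centring and 5 at 1.5-fold. They became 4 with an offset of 10, with the scanner software's ratios and with the deposited table. In Dll1-5 the 1 lower member became 2 under these last 3 settings, with median centring and with the mean of all probes, and 4 at 1.5-fold. Leaving out 1 array at a time gave 3 to 4 lower members in Dll1-3, 1 to 3 in Dll1-5 (2 without Dll1-5 replicate 1 and 3 without Dll1-5 replicate 2) and 2 to 3 that were lower in Dll1-3 than in Dll1-5. Between lines, the 3 members lower in Dll1-3 became 2 with no background correction, with the mean of all probes and with median centring, and 1 member, Fhl2, was higher in Dll1-3 with the scanner software's ratios and with the deposited table, against 0. The causes were not tested. Fhl2 could not be given a value where both dyes had to be above background on all 4 arrays.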
